A study of Saccharomyces cerevisiae with 67 samples.

Results

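Autonomously replicating sequences (ARS) are the stretches of yeast DNA from which chromosome replication starts. The 352 ARS described here are all features of the type origin of replication on the 16 nuclear chromosomes of the reference annotation of Saccharomyces cerevisiae (assembly R64, the NCBI counterpart of saccer3). The 8 mitochondrial origins were left out. Each ARS was placed against the deposited list of 1970 genomic regions that carry H4K12ac, which is histone H4 acetylated at lysine 12. ARS were 51 to 1324 bp long, with a median of 241 bp. The origin recognition complex (ORC) binds them at the ARS consensus sequence, a T-rich motif of 11 letters, and origins differ in how often and how early in S phase they fire. Newly made histone H4 is acetylated at lysine 5 and lysine 12 before it is placed on new DNA, and H4K12ac is also found at the starts of active genes.

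The list pools ChIP-seq libraries of strain BY4741, in mip6D cells, which lack the gene of the RNA-binding protein Mip6, and in wt cells. Exponential cultures in YPD medium were sampled at 30 °C, before heat shock, and 20 and 120 min after a shift to 39 °C. There are 19 H4K12ac libraries by their labels. Of these, mip6D cells had 4 at 30 °C, 3 after 20 min and 4 after 120 min, and wt cells had 3, 1 and 4. The list has 1 start and 1 end per region and no level, score or library, so no ARS can be compared between strains or times. Nor do the values below have replicates, and no statistical test was run. Intervals given with shares cover the number of ARS counted and nothing else. Depth is unknown in this list, so an ARS without a region is one where no peak was called, not one where H4K12ac was absent.

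Well-studied origins fell on opposite sides of the region borders. All 10 early or efficient origins of a list set from general knowledge lay wholly inside a region, as did 56.8% of all ARS. These 10 are all 30 kb or more from a chromosome end, where 63.1% of ARS lay wholly inside. Not every other origin that the annotation calls strong or highly active lay wholly inside. None of the 6 ARS at the silent mating cassettes, all within 30 kb of a chromosome end, and neither of the 2 ARS of the ribosomal DNA was touched. Of the 3 late origins listed, 2 were partly covered and 1 was untouched. By the annotation notes, 3 of 9 ARS classed as late lay wholly inside a region. The DNA around the ORC motif is shown for 3 origins inside regions and 3 whose motif lay outside, because they share the motif and differ in whether a region was called over it. Each run is 5′ to 3′ on the strand on which the motif reads, and the match to the ARS consensus sequence is in capitals.
ARS306, chrIII:74461-74611, plus strand, motif in a region: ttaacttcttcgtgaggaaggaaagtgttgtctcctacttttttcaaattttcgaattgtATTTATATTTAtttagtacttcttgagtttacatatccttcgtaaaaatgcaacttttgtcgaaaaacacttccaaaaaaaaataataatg
ARS1, chrIV:462516-462666, minus strand, motif in a region: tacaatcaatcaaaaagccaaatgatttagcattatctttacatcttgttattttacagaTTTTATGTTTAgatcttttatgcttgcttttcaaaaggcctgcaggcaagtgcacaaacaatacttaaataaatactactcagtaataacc
ARS606, chrVI:167646-167796, minus strand, motif in a region: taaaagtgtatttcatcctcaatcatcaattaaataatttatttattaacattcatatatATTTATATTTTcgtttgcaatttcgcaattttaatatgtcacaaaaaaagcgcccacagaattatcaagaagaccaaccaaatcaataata
ARS302, chrIII:14641-14791, plus strand, motif outside: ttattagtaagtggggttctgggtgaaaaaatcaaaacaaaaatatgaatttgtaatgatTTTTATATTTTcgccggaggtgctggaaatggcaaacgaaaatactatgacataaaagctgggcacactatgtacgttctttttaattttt
ARS317, chrIII:292594-292744, minus strand, motif outside: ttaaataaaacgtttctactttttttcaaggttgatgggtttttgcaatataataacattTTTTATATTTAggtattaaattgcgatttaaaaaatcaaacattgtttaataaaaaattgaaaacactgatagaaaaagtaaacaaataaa
ARS609, chrVI:256295-256445, minus strand, motif outside: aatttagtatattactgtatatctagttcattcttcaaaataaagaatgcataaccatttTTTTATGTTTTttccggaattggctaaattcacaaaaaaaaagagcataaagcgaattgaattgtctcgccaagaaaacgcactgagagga

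These 6 windows of 151 bases are AT-rich, with a GC content between 19.2 and 31.8%. Each of them holds an exact match to the 11 letters, whether the motif lay in a region or not. In the window of ARS609 a region shares 1 base with the motif match and covers 40.4% of the window.

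Over all 352 ARS, the share touched by a region was near that of the genome at large. A region shared at least 1 bp with 246 of the 352 ARS, or 69.9% (95% Wilson interval 64.9 to 74.4%), against 65.7% of all nuclear windows of 241 bp. Of the ARS, 200 (56.8%) lay wholly inside a region, against 57.9% of the windows. Another 46 (13.1%) were cut by a region border, against 7.84% of the windows, and 106 (30.1%) had no region. The midpoint of 221 ARS (62.8%) lay in a region, against 61.8% of all nuclear bases. Seen from the regions, 237 of 1970 (12.0%) held an ARS. Their median length was 4835 bp, against 2654 bp for regions without an ARS, and a longer region has more room for one.

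Some ARS lay within a few bases of the limit between touched and untouched. ARS202, between YBL086C and BOI1 on chromosome II, ended 5 bp from a region, and ARS1618, at ELP3 on chromosome XVI, had 0.403% of its bases in one. In the 106 ARS without a region, the nearest region lay at a median distance of 1110 bp (quartiles 307 and 3023 bp). For 29 of them it was under 500 bp away, and for 28 it was 3000 bp or more. The farthest was ARS824 on chromosome VIII, 26350 bp from a region and 6.48 kb from the chromosome end.

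**Figure D1:**
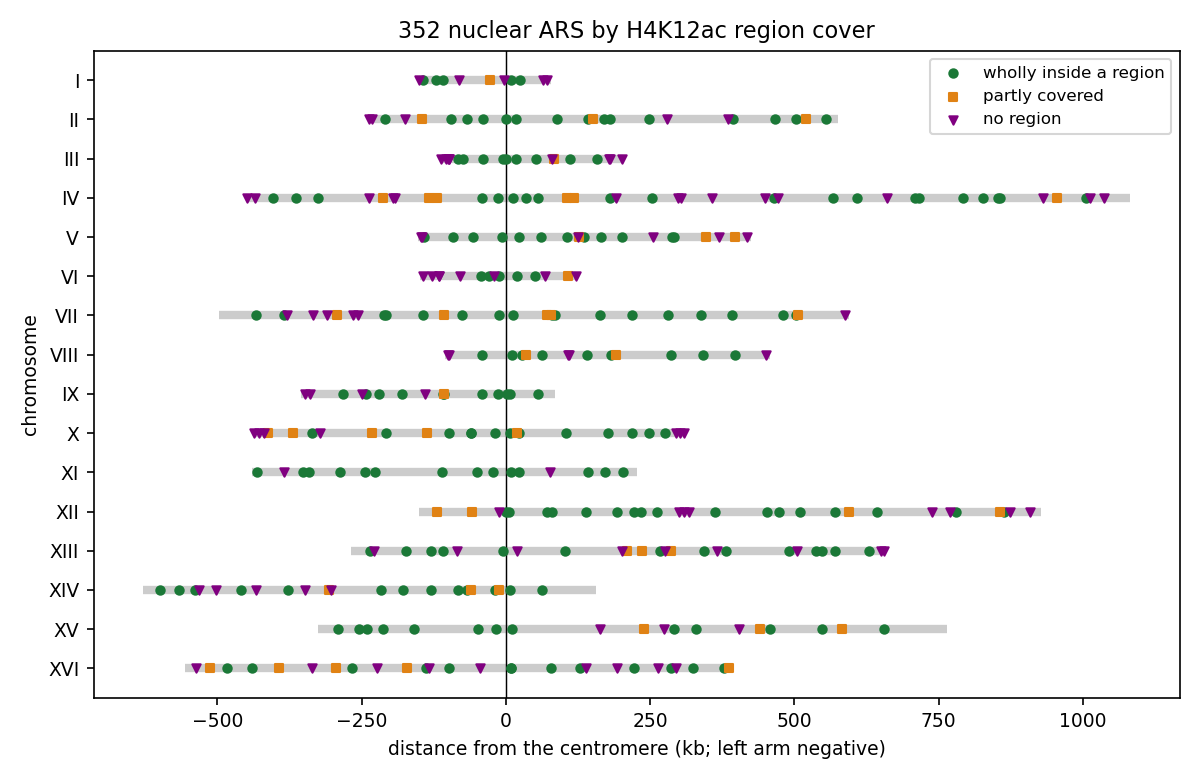
Position of the 352 nuclear ARS as distance from the centromere of their chromosome (kb, left arm negative), with grey bars for the chromosomes. Green circles lay wholly inside an H4K12ac region (200 ARS), orange squares were partly covered (46) and purple triangles had no region (106), which gather at many chromosome ends.

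The share of ARS touched varied with place on the chromosome. Within 30 kb of a chromosome end, regions touched 14 of 51 ARS (27.5%, 95% Wilson interval 17.1 to 41.0%), against 39.4% of the nuclear windows there. At 30 kb or more they touched 232 of 301 (77.1%, 72.0 to 81.5%), against 68% of the windows. The lowest share was in the last 10 kb, where 4 of 27 ARS were touched (14.8%). The midpoint lay in a region for 11.1% of these ARS, against 12.9% of the nuclear bases there, so the low share was that of the DNA near the ends as well. The 4 touched were ARS103 in SEO1, ARS504 between YEL073C and RMD6, ARS1102 at MCH2 and ARS1632 at YPR202W. None of the 8 ARS beyond the last gene of an arm was touched (95% Wilson upper bound 32.4%), and regions covered 0% of the nuclear bases there. Repeated sequence moved with this result. Repeated here means a run of 50 bases, the length of the reads, with more than 1 copy in the genome, and 28 of the 51 ARS near an end held such runs, against 9 of the 301 others. Regions touched 5 of the 37 ARS with such runs (13.5%) and 241 of the 315 without them (76.5%). Without the 37 ARS the difference between ARS near an end and the rest was -21.6 percentage points, against -49.6 with them. The part of repeats in it was not tested.

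Near centromeres most ARS were in regions. Regions touched 31 of 34 ARS within 20 kb of a centromere (91.2%, 95% Wilson interval 77.04 to 96.95%), against 76.5% of the windows at that distance and 73.4% of its bases, and 215 of 318 ARS farther away (67.6%), against 65.1% of the windows and 61.1% of the bases. Regions touched 17 of 19 ARS between 20 and 50 kb, where 84.2% of ARS midpoints and 64.5% of bases lay in regions. They touched 32 of 45 between 50 and 100 kb, where it was 68.9% of ARS midpoints and 65.2% of bases. Of the 16 ARS nearest to each centromere, 15 lay wholly inside a region. ARS308 on chromosome III (114321 to 114939), the nearest of all, contains the centromere and lay deepest of all ARS, 11517 bp from the nearer border of the region from 102804 to 128625. ARS1208 on chromosome XII adjoins its centromere and ARS208 on chromosome II, between ECM15 and the trehalase gene NTH2, lay 0.422 kb from its own. The exception was ARS108 on chromosome I, overlapping VPS8 and the RNA polymerase III factor gene TFC3, 3.97 kb from the centromere and 2486 bp from a region. The other ARS without a region within 20 kb of a centromere were ARS1207 in the sporulation gene SPO75 and ARS1310 upstream of the hexose transporter gene HXT2. The centromeres themselves lay wholly inside regions on 15 of 16 chromosomes, and that of chromosome IV was 66 bp away from one. Long regions bear on these values. Without the longest 5% of regions, 18 of the 34 ARS were touched and the difference from ARS farther away was -5.86 percentage points, against 23.6 with all regions. With all regions, this difference was 15.9 without ARS within 30 kb of a chromosome end and 16.1 without ARS that hold repeated sequence. The median distance to a gene start was 460.5 bp for ARS within 20 kb of a centromere and 711 bp for ARS farther away.

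**Figure D2:**
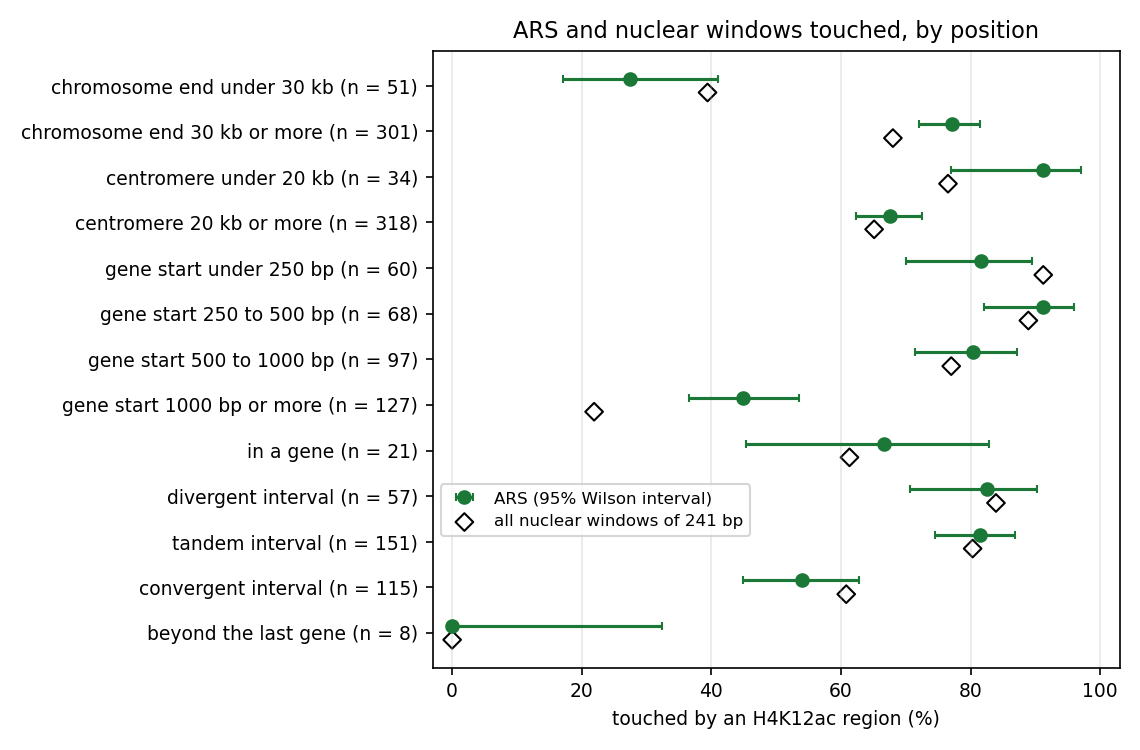
Share of ARS touched by an H4K12ac region (green, %, with 95% Wilson interval) and share of all nuclear windows of 241 bp touched (open diamonds, %), by distance to a chromosome end, centromere or gene start and by the genes around the midpoint. ARS near chromosome ends stand lowest of the distance classes, at 27.5%, and ARS near centromeres and those 250 to 500 bp from a gene start highest, at 91.2%.

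ARS near the start of a protein-coding gene were mostly in regions, and so were the windows there. The gene start in the annotation is that of the coding sequence. With the midpoint within 250 bp of a gene start, regions touched 49 of 60 ARS (81.7%), against 91.2% of the windows, and between 250 and 500 bp they touched 62 of 68 (91.2%), against 88.9%. Between 500 and 1000 bp it was 78 of 97 (80.4%), against 77%. At 1000 bp or more it was 57 of 127 (44.9%), against 21.9% of the windows. With 500 bp as the only limit, regions touched 111 of 128 ARS nearer to a gene start (86.7%), against 90.1% of the windows and 88.2% of the bases there, and 135 of 224 farther away (60.3%), against 47.8% of the windows and 42.4% of the bases. The median distance to a gene start was 539 bp for touched ARS and 1202 bp for ARS without a region.

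The genes around an ARS moved with the gap between ARS and windows at 1000 bp or more. Most DNA that far from a gene start is inside genes, while the midpoint of 323 ARS (91.8%) lay between protein-coding genes, which make up 26.8% of the nuclear genome. Convergent intervals, where the genes on either side end, held 35.6% of these ARS and 16.1% of the bases between genes. Divergent intervals, where both genes start, held 17.6% of the ARS and 32.9% of the bases. Regions touched 47 of 57 ARS in divergent intervals (82.5%), 123 of 151 in tandem intervals (81.5%) and 62 of 115 in convergent intervals (53.9%). The windows at these places were touched at 83.9%, 80.3% and 60.8%. The following classes were chosen after their values were seen. In convergent intervals 1000 bp or more from a gene start and 30 kb or more from a chromosome end, 37.5% of 72 ARS midpoints and 37.5% of bases lay in regions. From 500 bp it was 45.7% of 94 ARS midpoints in convergent intervals and 54.0% of bases, so ARS were the lower. In tandem intervals it was 70.6% of 17 ARS midpoints and 59.9% of bases from 1000 bp, and 78.6% of 56 ARS midpoints and 66.6% of bases from 500 bp, so ARS were the higher. Inside genes, at 1000 bp or more, it was 28.6% of 7 ARS midpoints and 13.0% of bases. The gap between ARS and the genome at 1000 bp or more ran from 0.042 percentage points in convergent intervals to 15.6 inside genes, against 26.1 over all 100 ARS this far from a gene start and from an end.

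**Figure D3:**
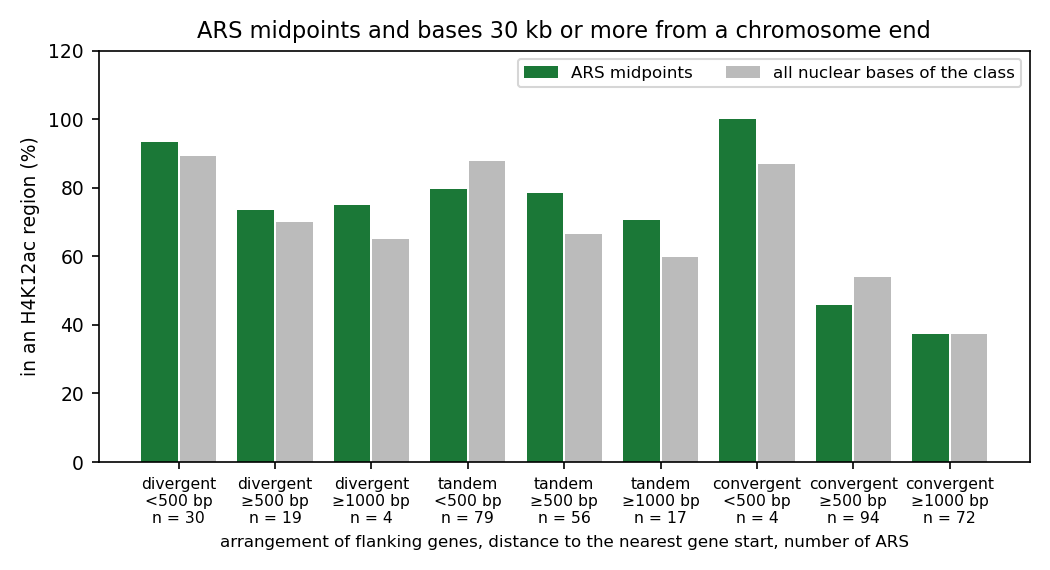
Share of ARS midpoints (green bars, %) and of all nuclear bases (grey bars, %) in an H4K12ac region, by the arrangement of the genes on either side and the distance to the nearest gene start, at 30 kb or more from a chromosome end. The class from 1000 bp is part of the class from 500 bp. In convergent intervals from 1000 bp both shares were 37.5%, and in tandem intervals from 500 bp they were 78.6 and 66.6%.

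ARS with midpoints inside a gene were few. Regions touched 14 of 21 (66.7%), against 61.3% of the windows in genes. ARS605 in MSH4, a gene of meiotic recombination, was wholly covered, as was ARS1512 in MDM12, whose product tethers the endoplasmic reticulum to mitochondria. ARS2 in the arginine gene ARG4 was covered at 98.5%. ARS604 in the proteasome activator gene BLM10, ARS701 in TIP20 and ARS1228 in the bromodomain gene BDF1 had no region.

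The early or efficient origins of the list lay wholly inside their regions, as did 56.8% of all ARS, at differing depths. ARS305 on chromosome III (39508 to 39595), between APA1 and YCL049C, lay 1586 bp from the nearer border of its region. ARS306 (74458 to 74677), next to HBN1, lay 3578 bp inside, and ARS315 (224816 to 225061), next to TAH1, 2942 bp. ARS307 lay 5923 bp inside the region of 25822 bp that also holds ARS308 and the centromere. ARS1 on chromosome IV (462567 to 462622), the first yeast origin to be isolated, lies between TRP1 and GAL3 and was 1802 bp inside a region. ARS607 on chromosome VI (199395 to 199505), upstream of PES4, the paralogue of MIP6, lay 762 bp inside. ARS310, ARS605, ARS309 and ARS606 lay 850, 925, 1070 and 1097 bp inside. For comparison, the midpoints of all ARS in regions lay at a median of 1325 bp from the border, and all bases in regions at 1059 bp. Depths span 762 to 5923 bp over the 10 origins of the list. No gene start lay within 500 bp of 7 of the 10. The list does not hold all strong origins of the annotation. ARS319, noted as highly active like ARS315 but 0.777 kb from a chromosome end, lay 4454 bp from a region. Of 3 further ARS noted as strong without a time, ARS1212.5 was wholly inside a region, ARS409.5 was covered at 52.6% and ARS600.4, 20.8 kb from an end, lay 1191 bp from one. ARS603, noted as highly efficient and described with the late origins, had no region.

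The late origins of the list and the silent origins were not wholly inside a region. The list does not hold all late origins of the annotation, and 3 of the 9 ARS classed as late by their notes lay wholly inside. ARS603 on chromosome VI (68759 to 68861), which the annotation gives as efficient and active in the second part of S phase, lay between MIL1 and the kinase gene RIM15 and 2609 bp from a region. ARS522 on chromosome V, late in S phase and 27.2 kb from the right end, had 56.2% of its bases in a region. ARS609 on chromosome VI, 13.8 kb from an end, had 30.3%. At HML, the silencers ARS301 and ARS302 and the dormant ARS303 and ARS320 lay 9596, 6148, 5784 and 4723 bp from a single nearest region, which starts at 20998. At HMR, the silencer ARS317 lay 998 bp and ARS318 253 bp from the same region of 874 bp, which lies between them. Both cassettes are copies of mating type genes that Sir proteins keep silent. ARS301 holds repeated sequence, and the other 5 of these ARS do not. In the ribosomal DNA, ARS1200-1 and ARS1200-2 lay 675 and 7324 bp from a region. They lie in tandem repeats, both hold repeated sequence, and its part in these values was not tested.

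**Figure D4:**
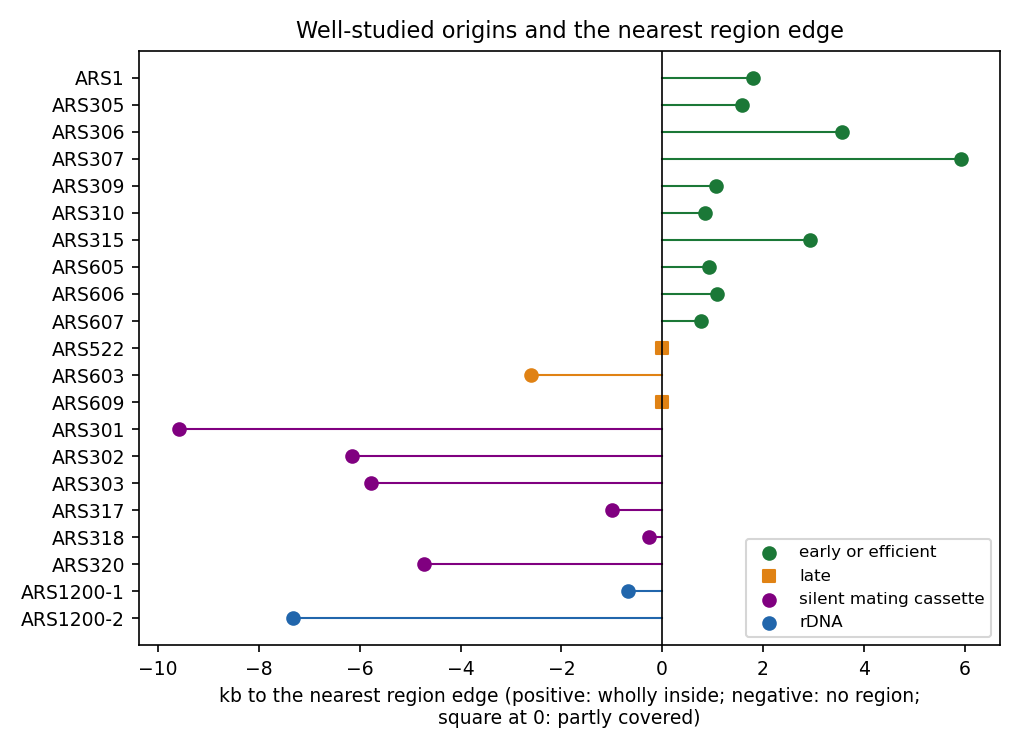
Distance (kb) from each of 21 well-studied ARS to the nearest border of an H4K12ac region, positive where the ARS is wholly inside a region and negative where it has none, with a square at 0 for partly covered ARS. The early or efficient origins (green) reach from 762 to 5923 bp inside, and the silent cassette origins (purple) from 253 to 9596 bp outside.

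The notes in the annotation, grouped here by their wording after the regions were known, cover more origins. Each ARS was put in 1 class, and notes of very low efficiency came before notes of timing. The 7 ARS classed as early lay wholly inside a region and 30 kb or more from a chromosome end. Most of them (ARS1, ARS305, ARS306, ARS605, ARS606 and ARS607) are also in the list of early or efficient origins above. Their count therefore largely repeats the count of that list. ARS608 on chromosome VI, whose note gives it as early but extremely inefficient, had no region (2029 bp away) and was classed as weak. Of 9 classed as late, 3 were wholly inside, 2 partly covered and 4 without a region. ARS522, ARS603 and ARS609 are among the 9. ARS317, noted as late and extremely inefficient and without a region, was also classed as weak. The 3 late ARS wholly inside were ARS1212, ARS1411 and ARS1413. They were also the only ARS touched among the 7 classed as late at 30 kb or more from a chromosome end. ARS1411 and ARS1413 lay 304 and 308 bp from a gene start. The median distance to a gene start was 1305 bp for ARS classed as late and 632 bp for those classed as early. Of 17 classed as weak, inefficient or inactive, 8 were touched and 5 wholly inside. Of the 10 of these at 30 kb or more from a chromosome end, 7 were touched. The 53 putative origins, seen in array studies and not yet borne out by a plasmid assay in the annotation, were touched in 32 cases (60.4%), and their median length was 471 bp. The other 266 ARS, in none of these classes, were touched in 194 cases (72.9%). Over all ARS, 69.9% were touched and 56.8% lay wholly inside. At 30 kb or more from a chromosome end, regions touched 77.1% of all ARS, 68.2% of the putative ones and 79.4% of those in no class. Timing in the notes goes with place, since 6 of the 7 ARS classed as early are on chromosomes III and VI, so timing, place and gene starts cannot be told apart.

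By chromosome, regions touched 14 of 16 ARS on chromosome XI and 6 of 14 on chromosome VI. Counted by midpoint it was 87.5% of the ARS on chromosome XI, against 65.4% of its bases, and 35.7% of the ARS on chromosome VI, against 62.1% of its bases. On chromosome VI the 6 were ARS603.1, ARS603.5, ARS605, ARS606, ARS607 and ARS609. On chromosome III regions touched 10 of 19 ARS, with 47.4% of midpoints in regions against 58.1% of bases, and the silent cassettes hold 6 of the 9 ARS without a region.

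Among ARS 30 kb or more from a chromosome end, those farthest from a region were ARS1200-2, ARS1629 on chromosome XVI beside the Ty genes YPR158W-B and YPR158C-D (6416 bp), ARS427 at RAD9, a DNA damage checkpoint gene (3031 bp), ARS603 and ARS909 between ASG1 and TAO3 (2548 bp). At the other end, ARS807 on chromosome VIII (133438 to 133539) lay 6110 bp inside the region from 122587 to 139649, between SPO13 and MIP6. MIP6 itself (YHR015W, 134554 to 136533), the gene deleted in mip6D cells, lay wholly in that region. Since mip6D cells lack this gene, reads over it can come only from the 8 wt libraries. The depth of ARS807 is measured across it. The next deepest after ARS307 were ARS715, between COQ8 and CDC20, at 5794 bp and ARS822, between PPX1 and SMN1, at 5499 bp. ARS209, formerly called the H4 ARS and next to the histone H4 gene HHF1, was wholly covered. The region with the most ARS lay on chromosome VII from 574638 to 582454 and held ARS722, ARS723 and ARS724. A further 7 regions held 2 ARS each.

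Regions around ARS midpoints had no single pattern across classes of ARS. Among the 301 ARS at 30 kb or more from a chromosome end, 69.4% of midpoints lay in a region, against 64% of nuclear bases as far from an end. The share was 66.4% at 1000 bp to the left and 73.1% at 1000 bp to the right in chromosome direction, 58.5% at 5000 bp to the left and 60.8% at 5000 bp to the right. Left and right have no biological meaning here, since ARS carry no orientation in these counts. ARS near an end had a share of 23.5% at the midpoint, against 36.7% of nuclear bases there. At 5000 bp to the left and right it was 31.1% and 36.2%. The positions between went both ways, with 19.6% at 4000 bp to the left, 17.0% at 1700 bp to the right and 40.4% at 3750 bp to the right. Positions past a chromosome end were left out, so these shares rest on 45 to 51 ARS and not on the same ARS throughout. For ARS 500 bp or more from a gene start the share was 52.7% at the midpoint, 50.2% at 5000 bp to the left and 52.9% at 5000 bp to the right. Between these points it was higher, at 59.4% 1300 bp to the left and 59.9% 1100 bp to the right. Midpoints inside regions lay at a median of 1325 bp from the border, against 1059 bp for all bases in regions, and 19.0% lay under 250 bp from it, against 13.2% of bases. With a limit of 500 bp the order turned, at 24.0% of midpoints and 26.2% of bases.

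**Figure D5:**
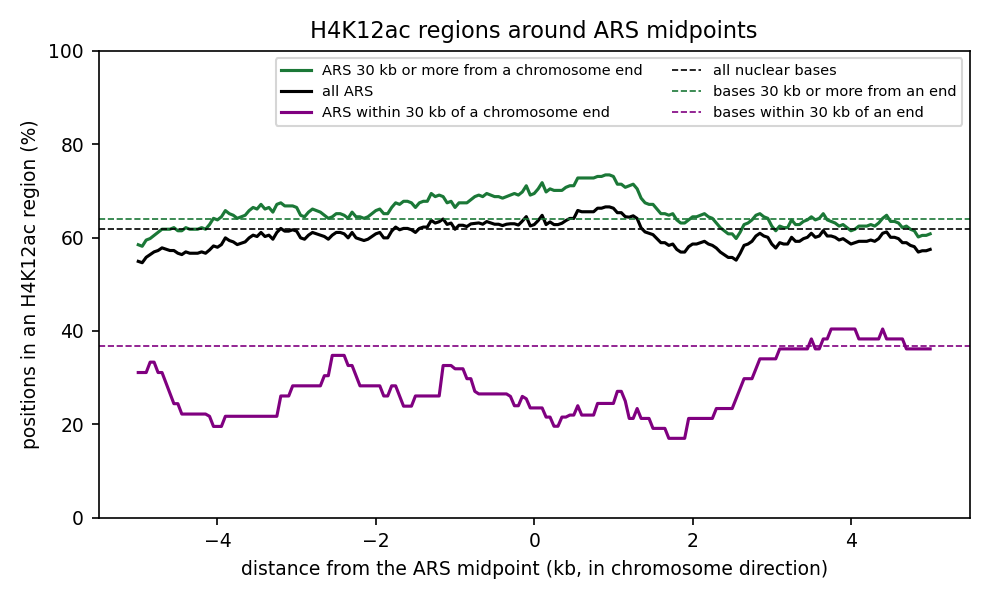
Share of positions in an H4K12ac region (%) by distance from the ARS midpoint (kb, in chromosome direction) for ARS at 30 kb or more from a chromosome end (green), all ARS (black) and ARS within 30 kb of an end (purple), with dashed lines for the nuclear bases of the same class. At the midpoint the shares were 69.4, 62.8 and 23.5%.

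Base composition was near the same in both kinds of ARS. The median GC content was 29.7% in touched ARS and 29.9% in ARS without a region, and the nuclear genome has 38.3%. An exact match to the ARS consensus sequence on either strand was found in 124 ARS (35.2%), against 1.49% of all nuclear windows of 241 bp, and no match says only that these letters were not in the annotated stretch. Regions touched 82 of the 124 ARS with a match (66.1%) and 164 of the 228 without (71.9%). At 30 kb or more from a chromosome end it was 78 of 98 (79.6%) and 154 of 203 (75.9%), so the direction turned. Of the 130 matches in ARS, 79 lay wholly in a region, against 480 of the 801 matches in the nuclear genome, which is near the same share.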

How the data were processed

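H4K12ac and total H4 ChIP-seq and RNA-seq were made from mip6D and wt cultures, and only the H4K12ac region list was analysed here. The authors used Cutadapt for adapters and Bowtie2 to place the 50 bp reads on saccer3. Their peaks came from Macs2, run without the H4 libraries, and overlapping peaks of different libraries were joined into 1 list (bedtools merge). Versions and the handling of reads with several matches are not given in the sources used here. The deposited columns used are region start and end in bp. The score column is 0 in each row and was not used. Merged regions can be longer than any peak of 1 library, and depth is unknown.

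ARS, centromeres and the 6002 nuclear protein-coding genes came from the R64 annotation (SGD R64-5-1), and no region passes a chromosome end of that assembly. Starts are counted from 1. An ARS was touched from 1 bp of overlap. Distances to chromosome ends, centromeres and gene starts were taken from the ARS midpoint. Shares were set beside all nuclear bases and all nuclear windows of 241 bp. Repeated sequence was 50-mers found more than 1 time in the reference on either strand. Named ARS were those of the lists of early, late, silent and ribosomal origins (ARS416 of that list is ARS1 in the annotation), the 5 deepest inside and, at 30 kb or more from a chromosome end, the 5 farthest from a region, the nearest to each centromere and those in the regions with most ARS. Others were chosen after their values were seen. Members and lists were chosen with earlier results of these data known. Overlap and distance code was tested on simulated data. Python 3.11.15, NumPy 2.4.6 and Matplotlib 3.10.9 were used.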

Additional observations from a re-analysis of the deposited data

How the results depend on the processing

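No paired analysis was possible because regions carry no library or replicate, so neither leaving out a library nor a stricter peak threshold could be tried. Of 100 alternative values, 78 moved by less than 50% of the width of the interval of the value reported, 20 moved further and 2 reversed. The 4 alternatives on gene arrangement were chosen after seeing the data. ARS touched were 62.8% when 50% of the ARS, or its midpoint, had to lie in a region. Without the longest 5% of regions, ARS touched were 58.2%, ARS wholly inside 46.3%, ARS bases covered 49.1% (59.4% with all regions), the median distance of untouched ARS 1990 bp, and the centromere difference reversed to -5.86 percentage points. Without ARS that hold repeated 50-mers, these shares were 76.5, 63.2 and 70.3%. Midpoints then exceeded all nuclear bases by 7.74 percentage points (0.996 with all ARS), and by 17.2 at 500 bp or more from a gene start (10.3 with all ARS). Repeats were left out of the ARS only and stayed in the nuclear bases, so these 2 excesses do not compare like with like. The difference between ARS near a chromosome end and others was -21.6 without repeats. Without ARS within 30 kb of an end, the same shares were 77.1, 63.1 and 69.96%. Midpoints then exceeded all nuclear bases by 7.65 percentage points (5.48 against bases equally far from an end). At 500 bp or more from a gene start, midpoints exceeded all bases that far from one by 17.3. The difference by consensus match reversed to 3.73, from -5.80, and both values were smaller than the reach of their intervals to each side. The difference between ARS near a gene start and others was 14.2 percentage points with a limit of 250 bp and 39.1 with 1000 bp (26.4 with 500 bp), and the excess of midpoints over bases was 18.7 at 1000 bp or more. The cause of these moves was not tested beyond the construction of each setting.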
